A study of Homo sapiens with 12 samples.

Results

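Transcripts of the serpin family were followed in FaDu cells, a line from a squamous cell carcinoma of the hypopharynx, and in Cal27 cells, a line from a squamous cell carcinoma of the tongue. Members were taken by name: protein-coding genes whose symbol is SERPIN followed by a clade letter from A to I and a number, with some genes set aside, which left 33 of 19629 protein-coding genes. Clade A gave 11 members, clade B 12, clades E, F and I 2 each, and clades C, D, G and H 1 each. Each line was present as parental cells, as cells made resistant to afatinib (AfaR), an irreversible inhibitor of the ERBB receptor family, and as cells made resistant to erlotinib (ErlR), a reversible inhibitor of EGFR. The 6 groups held 2 biological replicates each, all wild type in the labels. Resistant cells had been selected in rising drug doses, so each resistant model is a single selected population set against a single parental line. FaDu and Cal27 were grown in different media. By the study's methods, resistant stocks were kept in drug and taken off it a day before experiments. Resistance and recent drug exposure cannot be told apart here. The comparisons asked which serpin transcripts differed between each resistant model and the parental cells of its own line.

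Serpins are proteins with a shared fold and an exposed loop that works as bait. A protease that cuts the loop of an inhibitory member is dragged across the molecule and held as an inactive complex, so each inhibitor molecule is used up once. Clade A members are mostly secreted and many are made in the liver, clade B members mostly stay inside the cell and several mark stratified squamous epithelium, and a few members inhibit nothing, such as SERPINH1, a chaperone of collagen in the endoplasmic reticulum. In squamous tissue and its tumours the family limits plasminogen activators at the cell surface and the cathepsins and kallikreins that act in cornifying cells.

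The clade B genes on chromosome 18 form a run of neighbouring copies, and 2 of them, SERPINB3 and SERPINB4, the squamous cell carcinoma antigens, are near-identical. Over their 300-base promoter windows in RefSeq (GRCh38.p14, 250 bases before to 50 after the start site) they differed at 4 positions, an identity of 98.7%. The stretches shown run from base -135 to the last base before the start site, 5′ to 3′ on the minus strand, with the differing bases in capitals, and they show how alike the starts of these genes are.
SERPINB3 (chr18:63661894-63662028): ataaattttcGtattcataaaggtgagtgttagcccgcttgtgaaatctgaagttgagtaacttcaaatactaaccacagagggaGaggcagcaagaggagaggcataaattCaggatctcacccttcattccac
SERPINB4 (chr18:63644257-63644391): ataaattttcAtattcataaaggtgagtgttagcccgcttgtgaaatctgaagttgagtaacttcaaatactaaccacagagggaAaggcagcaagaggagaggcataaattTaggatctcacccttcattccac
Their longest protein-coding transcripts in GENCODE, 1707 bases each, were 95.7% identical, with a longest identical run of 129 bases, so no stretch of 150 bases, the read length, was shared whole. Values for these genes are nonetheless given as uncertain, since the way reads with several matches were counted is not known here.

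Other promoters of the cluster are shown because its members changed together in one model, as described further on. The letters TGANTCA, a loose form of the binding motif of AP-1, were searched on both strands, and any base was allowed at N. They were present in 6 of the 8 chromosome 18 members with a RefSeq window, in 2 of the other 18 members with a window, and in 7.71% of 35116 windows of all genes, where a gene may have more than 1 window. With the middle base fixed, TGACTCA on either strand, a form picked after the matches had been seen, 3 of the 8 chromosome 18 members and 0 of the other 18 held a match, against 4.95% of all windows. In SERPINB12, SERPINB2 and SERPINB5 the middle base was A or T, so they were not among these 3 members. The matches below are on the plus strand of chromosome 18, with the motif in capitals. That of SERPINB12 is not shown.
SERPINB13 (chr18:63587236-63587282): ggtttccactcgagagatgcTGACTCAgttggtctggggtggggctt
SERPINB7 (chr18:63775359-63775405): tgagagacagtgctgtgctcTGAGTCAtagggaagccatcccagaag
SERPINB8 (chr18:63970033-63970079): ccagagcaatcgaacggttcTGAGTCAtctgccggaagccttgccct
SERPINB2 (chr18:63887583-63887629): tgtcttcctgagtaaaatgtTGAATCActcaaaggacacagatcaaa
SERPINB5 (chr18:63476792-63476838): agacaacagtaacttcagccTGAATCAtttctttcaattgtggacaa
A match is a run of letters and not a measured site, and SERPINB3 and SERPINB4 held none in this window. CAGACA, the SMAD box, was found in 15 of the 40 member windows, from 13 of the 26 members with one, against 16.88% of all windows. TTCNNNGAA, a STAT motif, was in 9 of the 40, from 9 of the 26 members, against 7.66% of all windows. Counted in the same way, TGANTCA was in 9 of the 40 member windows and TGACTCA in 4. No window was matched for SERPINA2, SERPINB10, SERPINB11, SERPINC1, SERPINF1, SERPINF2 and SERPING1.

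Between 16334937 and 23399259 read counts fell on genes in each of the 12 libraries, with 3.86% to 5.82% of all counts on added ERCC spike-in RNA. FaDu parental and FaDu AfaR libraries held 20156109 or more, with 5.64% to 5.82% on spike-ins. FaDu ErlR and all Cal27 libraries held at most 16689855, with 3.86% to 4.60% on spike-ins. The cause of this split was not tested. Levels are given as CPM, the read counts scaled to a common library size with TMM factors, for each of the 2 libraries of a group. All 7 squamous epithelial markers listed (KRT5, KRT14, KRT17, TP63, CDH1, EPCAM, PERP) had counts in every group. Their summed level was 5369 to 12570 CPM in FaDu libraries, 3742 to 4581 in Cal27 parental, 4371 to 4462 in Cal27 ErlR and 963 to 1075 in Cal27 AfaR. In Cal27 AfaR, 5 of the 7 squamous markers fell against the parental cells and 3 of 5 fibroblast markers rose (LUM, COL1A1 and PDGFRB). The summed fibroblast level was 310 to 322 CPM against 28.1 to 38.2 in the parental libraries. COL1A1 made up most of it, at 265 and 273 CPM, while DCN and COL3A1, both under 1 CPM there, overlapped the parental libraries. By the limits given further on, 11.5% of all tested genes rose and 8.06% fell in Cal27 AfaR, and 3.56% and 9.92% in Cal27 ErlR. In Cal27 ErlR 2 of the 7 squamous markers fell, KRT14 (-3.19 ± 0.48, edgeR adjusted p = 0.00167) and KRT17 (-1.13 ± 0.21, edgeR adjusted p = 0.00445), while KRT5 made up most of the summed level, and 2 fibroblast markers, COL1A1 and PDGFRB, fell, with a summed fibroblast level of 4.28 to 9.28 CPM. Hepatocyte markers summed to at most 0.55 CPM in any library, leukocyte markers to at most 4.80 CPM and endothelial markers to at most 37.3 CPM. In bulk RNA, fewer cells of a type and less RNA per cell cannot be told apart.

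Of the 33 members, 4 had no counts in any library (SERPINA7, SERPINA11, SERPINB11 and SERPINI2) and 11 had 1 to 20 counts over all 12 libraries. A filter on low counts left 13 members to test in FaDu and 17 in Cal27, 12 of them in both lines and 18 in at least 1. The 15 members in neither test, which include the blood proteins antithrombin (SERPINC1) and heparin cofactor (SERPIND1) and the hormone carriers SERPINA6 and SERPINA7, reached no more than 0.524 CPM in any library. SERPINA4 was the highest of them, at 0.116 and 0.524 CPM in the Cal27 parental libraries.

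**Figure D1:**
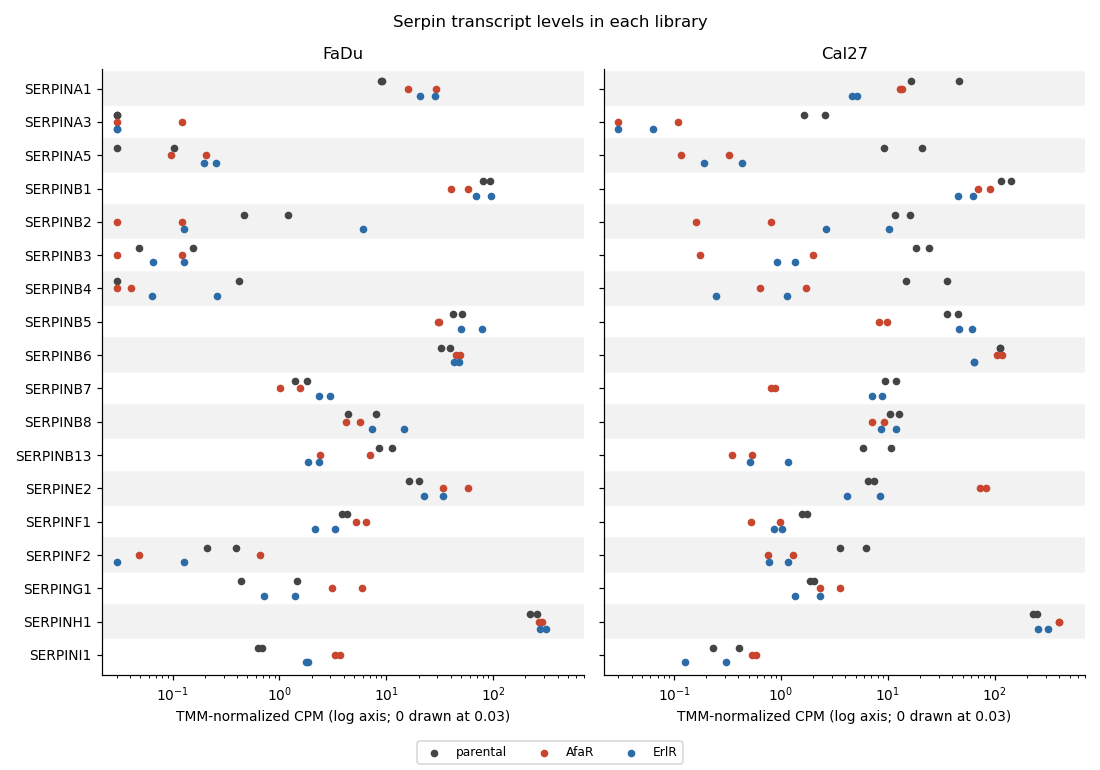
Level of each of the 18 tested serpin genes in every library, as TMM-normalized CPM on a log axis, for FaDu (left) and Cal27 (right); each point is 1 library, coloured by group. Levels spanned from 0 to 401 CPM, and SERPINH1 lay furthest right in every library of both lines.

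The levels of different genes were ordered per kilobase of exon, the length given with the counts. Among the 33 members, SERPINH1 had the highest level in all 6 groups, from 48.3 CPM per kilobase in FaDu parental to 81.0 in Cal27 AfaR. SERPINB1, an inhibitor of neutrophil proteases that stays in the cell, came next in all 6, at 28.0 CPM per kilobase in FaDu parental and 41.3 in Cal27 parental. SERPINB5 was at rank 3 in FaDu parental, at 11.8 CPM per kilobase, while SERPINB6 held that rank in Cal27 parental, at 23.7. In Cal27 ErlR the levels of SERPINB5 and SERPINB6, 13.7 and 13.5 CPM per kilobase, did not differ beyond the spread of their libraries. SERPINE2 was at rank 4 in Cal27 AfaR, at 8.71 CPM per kilobase.

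Within the summed level per kilobase of the 33 members, clade B made up 64.8% and 63.2% in the Cal27 parental libraries. In Cal27 AfaR it made up 37.8% and 35.5%, and in Cal27 ErlR 46.8% and 45.7%, so neither resistant model overlapped the parental cells. SERPINE2 went from 0.458% and 0.436% of the sum in Cal27 parental to 5.36% and 6.37% in Cal27 AfaR. In FaDu the clade B share was 51.6% and 46.2% in parental and 31.01% and 36.37% in AfaR, without overlap, while ErlR, at 42.3% and 47.2%, overlapped the parental libraries. These shares carry no test.

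**Figure D2:**
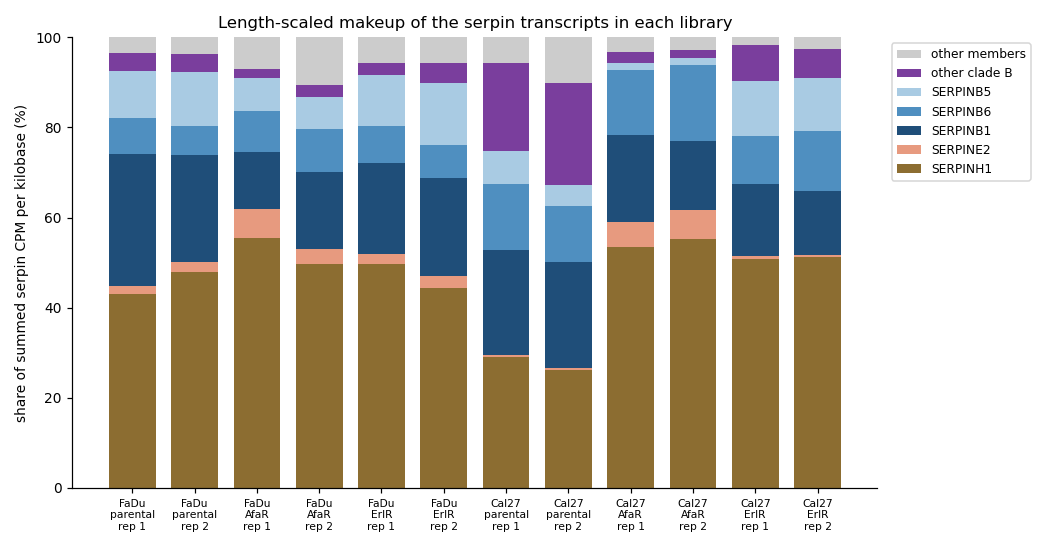
Share of the summed level per kilobase of the 33 members (percent, vertical axis) taken by named members in each of the 12 libraries (bars). The Cal27 parental bars have the tallest clade B part, 64.8% and 63.2% in all, and the Cal27 AfaR bars the thinnest SERPINB5 blocks, 1.63% and 1.44%.

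A member was called when the edgeR quasi-likelihood test gave an adjusted p under 0.05 over all genes tested and the log2 fold change exceeded 1 in size. In FaDu AfaR 4 of 13 members were called higher and 0 lower than in FaDu parental, where 6.48% and 0.954% of all tested genes were called in those directions. DESeq2 also called 4 members, all higher, and 1 member, SERPINB1, was lower by adjusted p alone. In FaDu ErlR 1 member was called higher (background 1.54%) and 1 lower (0.504%). With the libraries scaled by the spike-ins, 5 were higher and 1 lower. That scaling called 1514 of 15092 tested genes higher and 62 lower there, against 233 and 76 with TMM. Cal27 AfaR had 1 of 17 members called higher (background 11.5%) and 10 lower (8.06%). Cal27 ErlR had 0 called higher by edgeR (background 3.56%) and 8 lower (9.92%). DESeq2 also called 0 higher there, and 0 were higher at an unadjusted p under 0.05.

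The tested members had a median log2 fold change of 0.19 (AfaR) and 0.44 (ErlR) in FaDu and of -2.15 (AfaR) and -1.12 (ErlR) in Cal27, while over all genes tested it lay between -0.03 and 0.00. Members that entered the test only through the parental libraries had to be lower in the resistant ones if they differed: SERPINA3 and SERPINA5, for example, had at most 7 counts in any Cal27 resistant library. With only members of at least 10 counts in every library, 5 of 10 were called in Cal27 AfaR (1 higher) and 3 of 10 in Cal27 ErlR (all lower). The share of all genes called under that filter is not given here, so these counts have no background beside them. The calls for FaDu rest on small margins, and single libraries decided several of them, as given with each gene.

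**Figure D3:**
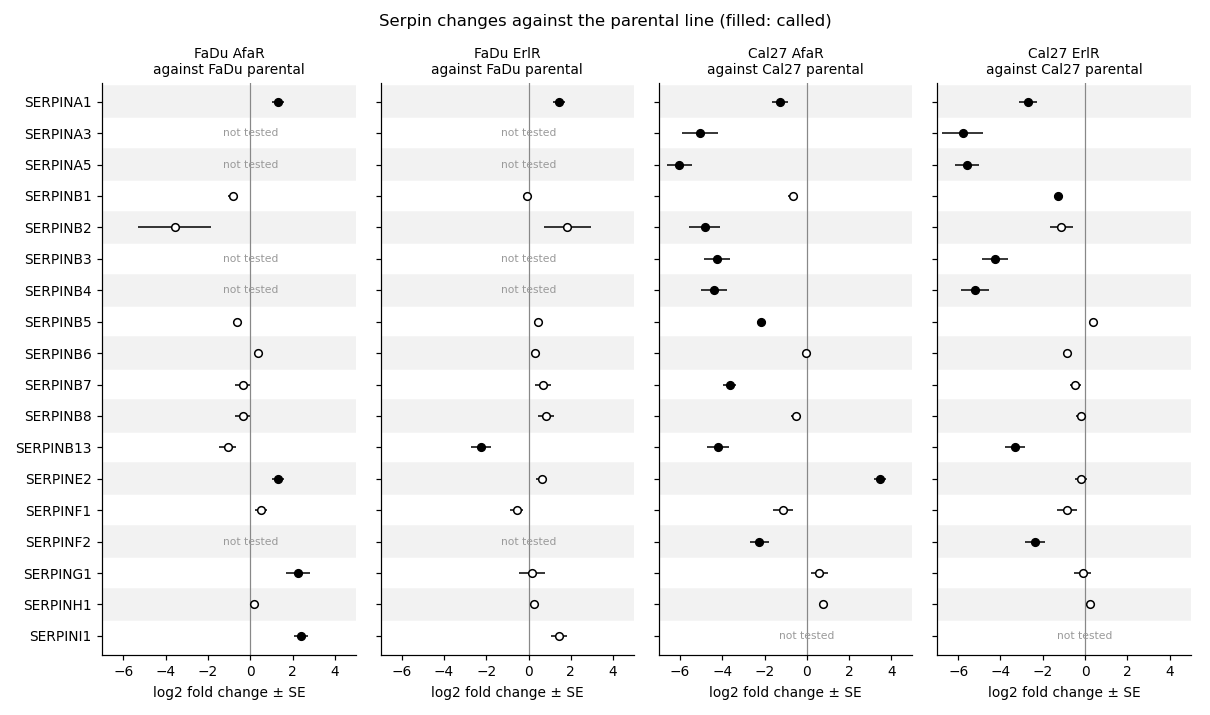
log2 fold change with its standard error (horizontal axis) of 18 serpin genes in the 4 resistant groups, each against the parental group of its line; filled points were called and open points were not. The Cal27 panels hold 10 and 8 filled points left of 0, and the FaDu panels 0 and 1.

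SERPINE2 is a secreted inhibitor that acts on thrombin and on plasminogen activators, and it rose in both AfaR models. In Cal27, SERPINE2 (ENSG00000135919, chr2:223975112-224039319) was at 6.52 and 7.46 CPM in Cal27 parental, 72.6 and 82.3 in AfaR, and 8.43 and 4.15 in ErlR. Only the AfaR libraries stood apart. The log2 fold change was 3.47 ± 0.27 in Cal27 AfaR (edgeR adjusted p = 2.31e-05) and -0.18 ± 0.28 in Cal27 ErlR (edgeR adjusted p = 0.668), and AfaR exceeded ErlR by 3.65 ± 0.28 (edgeR adjusted p = 1.36e-05). In FaDu the libraries held 16.3 and 20.3 CPM in parental, 58.5 and 33.8 in AfaR, and 22.4 and 34.1 in ErlR, so the resistant models overlapped each other and neither overlapped the parental cells. The FaDu AfaR change of 1.31 ± 0.28 (edgeR adjusted p = 0.0154) was no longer called without parental replicate 1 (1.16) or AfaR replicate 1 (0.86). The 5 fibroblast markers, all with counts in both groups, summed to 310 to 322 CPM in Cal27 AfaR against 28.1 to 38.2 in Cal27 parental. COL1A1, LUM and PDGFRB rose, and DCN and COL3A1 overlapped the parental libraries. The part of these markers in the SERPINE2 values of Cal27 AfaR was not tested.

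**Figure D4:**
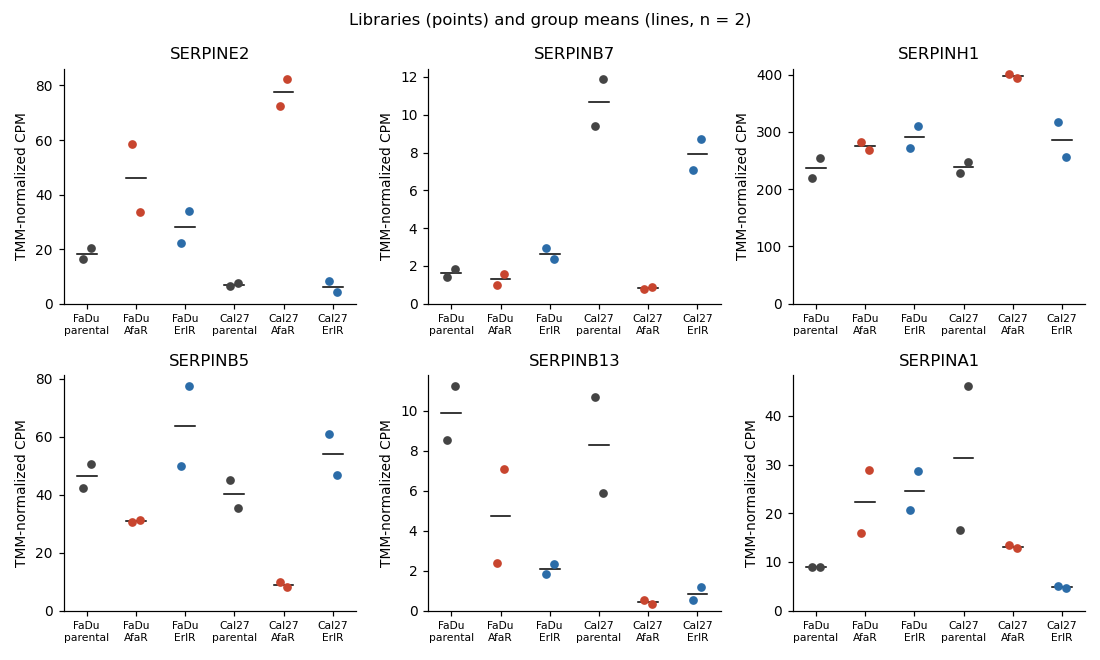
TMM-normalized CPM (vertical axes, from 0) of 6 serpin genes in each library (points) with the mean of each group (line, n = 2). SERPINE2 is highest in Cal27 AfaR, at 72.6 to 82.3 CPM, where SERPINB7 is lowest, at 0.809 to 0.870 CPM, and SERPINA1 is highest in Cal27 parental, whose libraries stand at 16.5 and 46.2 CPM.

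Other serpins of the plasminogen system were SERPINB2, an inhibitor of urokinase; SERPINF2, antiplasmin; SERPINI1, neuroserpin, an inhibitor of tissue plasminogen activator; and SERPINA5, the protein C inhibitor, which also acts on urokinase. SERPINF2 (ENSG00000167711) was at 3.55 and 6.24 CPM in Cal27 parental against 1.29 and 0.754 in AfaR and 0.766 and 1.16 in ErlR. Both resistant models lay below the parental libraries, by -2.24 ± 0.45 (edgeR adjusted p = 0.00415) and -2.36 ± 0.46 (edgeR adjusted p = 0.00555) on the log2 scale. In FaDu it stayed under 0.66 CPM and was not tested. SERPINI1 (ENSG00000163536) rose in FaDu AfaR, from 0.679 and 0.623 CPM in parental to 3.68 and 3.33, a log2 fold change of 2.40 ± 0.35 (edgeR adjusted p = 0.00470). In FaDu ErlR, at 1.85 and 1.76 CPM, it differed by 1.45 ± 0.37 and missed the threshold (edgeR adjusted p = 0.0604), although those libraries did not overlap the parental ones. It stayed under 0.6 CPM in Cal27.

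The targets of these inhibitors did not move as a block. PLAU, urokinase, was at 159 and 149 CPM in FaDu parental and 288 and 389 in FaDu AfaR, a rise of 1.12 ± 0.28 (edgeR adjusted p = 0.0276), with 0.74 ± 0.14 in Cal27 AfaR (edgeR adjusted p = 0.00314) and -0.86 ± 0.14 in Cal27 ErlR (edgeR adjusted p = 0.00248), both inside the fold limit. PLAT, tissue plasminogen activator, was at 141 and 174 CPM in Cal27 parental and fell in both Cal27 models, to 23.6 and 20.2 CPM in AfaR and 10.4 and 18.8 in ErlR. The log2 fold changes of PLAT were -2.84 ± 0.25 and -3.45 ± 0.26 (edgeR adjusted p = 4.14e-05 and 6.53e-05).

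SERPINA1, antitrypsin, which blocks neutrophil elastase, was called in all 4 comparisons, higher in FaDu and lower in Cal27. In FaDu it was at 8.88 and 9.04 CPM in parental, 15.9 and 28.9 in AfaR and 20.7 and 28.6 in ErlR. Neither resistant model overlapped the parental cells, with log2 fold changes of 1.30 ± 0.27 (edgeR adjusted p = 0.0154) and 1.45 ± 0.28 (edgeR adjusted p = 0.0268). The AfaR call was lost without parental replicate 1 (1.28), parental replicate 2 (1.31) or AfaR replicate 2 (0.81), and the ErlR call without parental replicate 1 (1.43), parental replicate 2 (1.46) or ErlR replicate 2 (1.20). In 1 fit of all 12 libraries the ErlR call was also lost (1.46, edgeR adjusted p = 0.058).

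In Cal27, SERPINA1 (ENSG00000197249, chr14:94376747-94390693) was at 16.5 and 46.2 CPM in parental, 13.4 and 12.9 in AfaR and 5.11 and 4.64 in ErlR. The parental libraries lay far apart. The log2 fold change was -2.71 ± 0.42 in ErlR (edgeR adjusted p = 0.00192) and -1.25 ± 0.38 in AfaR (edgeR adjusted p = 0.0287). The AfaR call rested on the high parental library: without parental replicate 2 the change was -0.33, and it was also lost without AfaR replicate 1 (-1.29) or AfaR replicate 2 (-1.21). The effects in FaDu and Cal27 differed by 2.58 ± 0.55 for AfaR (edgeR interaction, adjusted p = 0.00639) and 4.15 ± 0.58 for ErlR (edgeR interaction, adjusted p = 0.000842).

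SERPINA5 and SERPINA3, the latter an inhibitor of cathepsin G known as antichymotrypsin, had counts mainly in Cal27 parental cells. SERPINA5 (ENSG00000188488, chr14:94561442-94593120) was at 9.25 and 20.7 CPM there, against at most 0.427 CPM in any Cal27 resistant library and 0.256 in any FaDu library. Its log2 fold changes were -6.02 ± 0.59 in Cal27 AfaR (edgeR adjusted p = 8.27e-05) and -5.58 ± 0.57 in Cal27 ErlR (edgeR adjusted p = 0.000288). SERPINA3 had 28 and 44 counts in the Cal27 parental libraries and a total of 2 in AfaR and 1 in ErlR, ratios of parental to resistant level of 37.5 (95% exact interval of the counts 10.0 to 316) and 67.2 (11.7 to 2690). These intervals cover counting error only. Hepatocyte markers were near 0 in the same libraries, at 0 to 0.0583 CPM summed over 6 genes in Cal27 parental. SERPINA5 overlaps SERPINA4 on the same strand, which had almost no counts.

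The remaining clade A members stayed at or below 0.524 CPM in every library. SERPINA1, SERPINA3 and SERPINA5 lie in a run of 10 clade A genes on chromosome 14. Among 19 other protein-coding genes whose start was within 1 Mb of that run, 5 of 15 tested were called higher and 0 lower in FaDu AfaR, 2 and 0 in FaDu ErlR, 2 and 3 of 12 in Cal27 AfaR, and 1 and 3 of 12 in Cal27 ErlR. Of all tested genes, 6.48% were called higher and 0.954% lower in FaDu AfaR, and 1.54% and 0.504% in FaDu ErlR. In Cal27 these shares were 11.5% and 8.06% for AfaR, and 3.56% and 9.92% for ErlR.

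The clade B genes of chromosome 18 are known from the upper layers of squamous epithelium. SERPINB5, maspin, inhibits no protease and is a marker of epithelial cells; SERPINB13 and SERPINB3 inhibit cathepsins, and SERPINB4 inhibits cathepsin G and chymase; SERPINB7, megsin, is needed for a normal epidermal barrier; SERPINB8 inhibits furin. In Cal27 AfaR 6 of the 7 members tested fell, namely SERPINB5, SERPINB13, SERPINB4, SERPINB3, SERPINB7 and SERPINB2, where 8.06% of all tested genes were called lower, and SERPINB8 did not pass. In Cal27 ErlR 3 of the 7 fell, SERPINB13, SERPINB4 and SERPINB3, where 9.92% of all tested genes were called lower. Of the 6, SERPINB5 and SERPINB7 had at least 10 counts in every Cal27 library, and the other 4 went under 10 counts in at least 1 resistant library. In these same Cal27 AfaR libraries the summed squamous markers were at 963 to 1075 CPM, against 3742 to 4581 in parental, and in Cal27 ErlR KRT14 was at 30.6 and 12.2 CPM against 272 and 112 in parental. The part of these markers in the results was not tested.

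SERPINB5 (ENSG00000206075, chr18:63476761-63505085) was at 44.9 and 35.4 CPM in Cal27 parental, 9.82 and 8.23 in AfaR, and 61.1 and 46.7 in ErlR. AfaR lay below the other groups, which did not overlap each other. The log2 fold change was -2.15 ± 0.20 in AfaR, a 4.43-fold lower level (edgeR adjusted p = 5.88e-05), against 0.40 ± 0.18 in ErlR (edgeR adjusted p = 0.136), and the direct difference of AfaR from ErlR was -2.55 ± 0.20 (edgeR adjusted p = 1.59e-05). In FaDu it was at 42.4 and 50.6 CPM in parental, 30.5 and 31.2 in AfaR and 49.8 and 77.7 in ErlR, and neither change was called. The AfaR effect differed between the lines by 1.56 ± 0.31 (edgeR interaction, adjusted p = 0.00394).

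SERPINB7 (ENSG00000166396, chr18:63752935-63805376) was at 9.43 and 11.9 CPM in Cal27 parental, 0.809 and 0.870 in AfaR and 7.09 and 8.73 in ErlR. The AfaR libraries were far below the others. The change was -3.65 ± 0.30 on the log2 scale in AfaR (edgeR adjusted p = 3.18e-05) and -0.46 ± 0.25 in ErlR (edgeR adjusted p = 0.196), with a direct difference between the models of -3.20 ± 0.31 (edgeR adjusted p = 4.64e-05). In FaDu it lay between 1.02 and 2.94 CPM and was not called, and the AfaR effects of the lines differed by 3.35 ± 0.46 (edgeR interaction, adjusted p = 0.000393).

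SERPINB2 (ENSG00000197632, chr18:63871692-63903890) was at 15.9 and 11.6 CPM in Cal27 parental, 0.162 and 0.812 in AfaR and 10.3 and 2.63 in ErlR. AfaR stood below both other groups, and the ErlR libraries differed widely. The log2 fold change was -4.83 ± 0.73 in AfaR (edgeR adjusted p = 0.000944); in ErlR it was -1.12 ± 0.55 (edgeR adjusted p = 0.158), which passed without ErlR replicate 1 (-2.41). In FaDu, 1 library stood alone, ErlR replicate 2 at 6.01 CPM, against 0.128 in ErlR replicate 1 and at most 1.21 elsewhere. FaDu AfaR had 3 counts in all against 34 in parental, a ratio of parental to AfaR of 12.8 (95% exact interval of the counts 4.02 to 65.1), and the fit did not call it (edgeR adjusted p = 0.171), although it did so without FaDu ErlR replicate 1 (log2 fold change -3.57).

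SERPINB13 (ENSG00000197641, chr18:63586989-63604639) fell in 3 of the 4 comparisons. In Cal27 it was at 10.7 and 5.89 CPM in parental, 0.539 and 0.348 in AfaR and 0.511 and 1.16 in ErlR. Both resistant models lay below parental and overlapped each other, with log2 fold changes of -4.19 ± 0.51 (edgeR adjusted p = 0.000278) and -3.32 ± 0.47 (edgeR adjusted p = 0.00139). In FaDu it was at 8.54 and 11.2 CPM in parental, 2.38 and 7.07 in AfaR and 1.85 and 2.35 in ErlR. The FaDu ErlR change of -2.24 ± 0.47 (edgeR adjusted p = 0.0354) was lost whichever of its 4 libraries was left out, with values from -2.43 to -2.03. The FaDu AfaR change of -1.07 ± 0.42 was not called (edgeR adjusted p = 0.106), but passed without AfaR replicate 2 (-2.07).

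SERPINB3 and SERPINB4 had their highest levels in Cal27 parental cells. SERPINB3 (ENSG00000057149, chr18:63655197-63661963) was at 18.2 and 24.3 CPM there, 2.00 and 0.174 in AfaR and 1.34 and 0.916 in ErlR. SERPINB4 (ENSG00000206073, chr18:63637259-63644298) was at 14.7 and 35.6 CPM in parental, 1.73 and 0.638 in AfaR and 1.15 and 0.244 in ErlR. Both genes were below the parental libraries in both models, without overlap. The changes of SERPINB3 were -4.25 ± 0.61 in AfaR and -4.25 ± 0.62 in ErlR (edgeR adjusted p = 0.000703 and 0.00148), and those of SERPINB4 were -4.39 ± 0.60 and -5.20 ± 0.66 (edgeR adjusted p = 0.000567 and 0.000804). With the counts of both genes added, so that reads split between the copies do not matter, the changes were -4.33 ± 0.55 and -4.70 ± 0.57 (edgeR adjusted p = 0.000362 and 0.000690). In FaDu neither gene passed 0.416 CPM.

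SERPINB8, whose window also holds the AP-1 letters shown above, was at 12.7 and 10.4 CPM in Cal27 parental, 7.17 and 9.10 in AfaR and 12.0 and 8.61 in ErlR, and was called in none of the 4 comparisons. Changes ranged from -0.51 ± 0.24 in Cal27 AfaR to 0.81 ± 0.38 in FaDu ErlR. SERPINB12, SERPINB10 and SERPINB11, in the same run, had next to no counts. The 6 other protein-coding genes that start within 1 Mb of the cluster gave 5 tested genes, ZCCHC2, PHLPP1, BCL2, KDSR and VPS4B, of which 0 were called by edgeR in any of the 4 comparisons. In Cal27 AfaR the log2 fold changes of these 5 ran from -0.74 to 0.95, and PHLPP1 and BCL2 passed on adjusted p alone. Of all tested genes in that model, 11.5% were called higher and 8.06% lower.

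**Figure D5:**
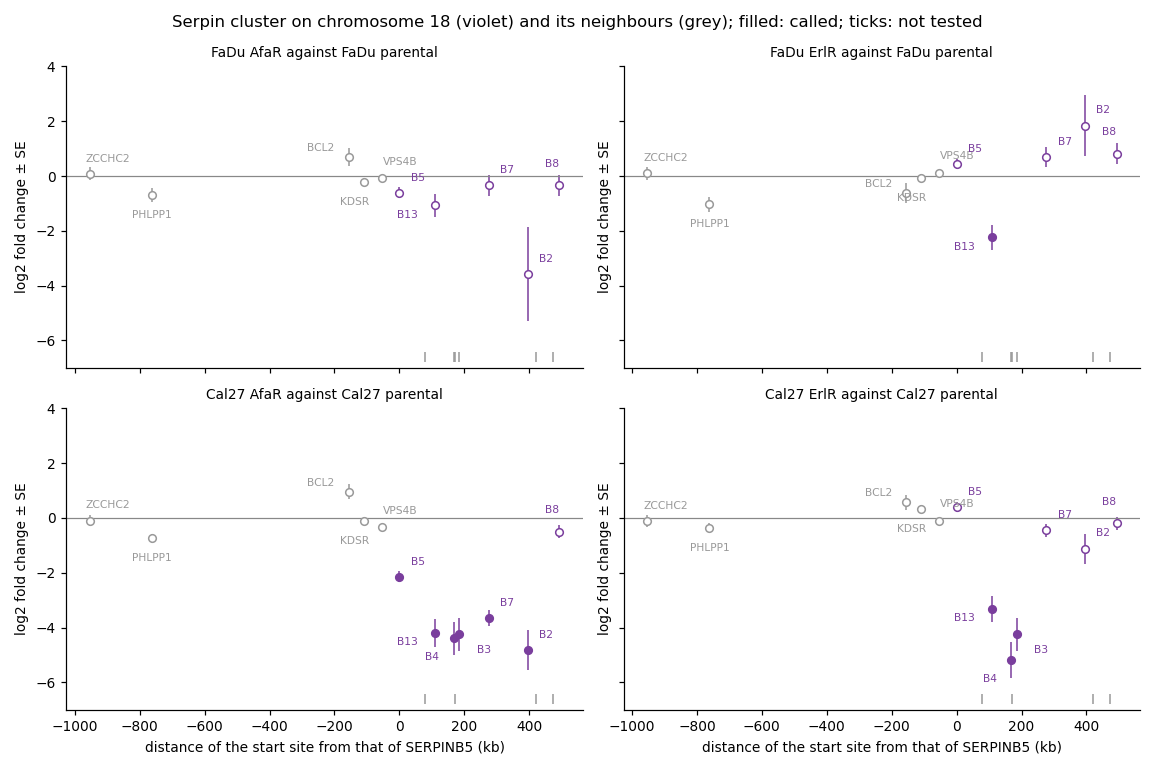
log2 fold change with its standard error (vertical axis) against the distance in kb of each gene's start from that of SERPINB5 (horizontal axis), for serpins (violet) and neighbours (grey) in the 4 comparisons; filled points were called, and ticks at the bottom mark genes not tested. In Cal27 AfaR the serpins from SERPINB5 to SERPINB2 lie at -4.83 to -2.15, while SERPINB8 and the 5 neighbours lie between -0.74 and 0.95.

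SERPINB1 and SERPINB6 lie on chromosome 6 and are broadly made inhibitors of granule proteases. SERPINB1 (ENSG00000021355) was at 115 and 141 CPM in Cal27 parental, 91.0 and 68.9 in AfaR and 63.1 and 44.8 in ErlR, each resistant group below the parental one. It fell in Cal27 ErlR by 1.27 ± 0.20 on the log2 scale (edgeR adjusted p = 0.00228), and its change in Cal27 AfaR was -0.67 ± 0.20 (edgeR adjusted p = 0.0257), inside the fold limit. In FaDu it was at 93.6 and 79.9 CPM in parental and 40.5 and 57.8 in AfaR, a change of -0.84 ± 0.20 (edgeR adjusted p = 0.0227) that exceeded the fold limit without AfaR replicate 2 (-1.11). FaDu ErlR, at 69.4 and 96.0 CPM, overlapped the parental libraries.

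SERPINB6 (ENSG00000124570) held at 112 and 112 CPM in Cal27 parental and 104 and 116 in AfaR, and stood at 64.1 and 63.6 in ErlR. The ErlR change of -0.84 ± 0.12 (edgeR adjusted p = 0.00150) was within the fold limit. In FaDu it lay between 32.7 and 48.8 CPM in all 6 libraries, and no change was called. Of 12 other protein-coding genes within 1 Mb, all tested, 1 was called higher in FaDu AfaR and 0 in FaDu ErlR (edgeR; also 0 lower), while Cal27 had 1 higher and 1 lower in AfaR and 1 lower in ErlR. The shares of all tested genes called higher were 6.48% in FaDu AfaR, 1.54% in FaDu ErlR and 11.5% in Cal27 AfaR. Those called lower were 8.06% in Cal27 AfaR and 9.92% in Cal27 ErlR.

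SERPINH1 (ENSG00000149257, chr11:75562056-75572783), the collagen chaperone, had the highest level of the 33 members and was called in none of the 4 comparisons. It was at 220 and 255 CPM in FaDu parental, 283 and 268 in AfaR, and 272 and 311 in ErlR. In Cal27 it was at 228 and 247 CPM in parental, 401 and 395 in AfaR, and 316 and 256 in ErlR. The resistant libraries lay above the parental ones of their line in every model. The Cal27 AfaR change of 0.74 ± 0.14 passed on adjusted p (edgeR, 0.00318) within the fold limit, and the others ranged from 0.19 ± 0.12 to 0.28 ± 0.12 and did not pass.

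Among 18 genes that fold and modify collagen beside SERPINH1, 17 were tested. Of all tested genes in Cal27 AfaR, 11.5% were called higher and 8.06% lower. Among the 17, 4 rose and 0 fell there, with a median log2 fold change of 0.60. They were P3H3 at 2.63 ± 0.48, P3H1 at 1.52 ± 0.16, PLOD2 at 1.05 ± 0.28 and FKBP10 at 1.05 ± 0.32 (edgeR adjusted p = 0.00252, 0.000127, 0.0152 and 0.0294), which add hydroxyl groups to collagen or help it fold. PLOD2 was at 130 and 259 CPM in Cal27 parental and 444 and 362 in AfaR. FKBP10 was at 2.21 and 3.44 CPM in Cal27 parental and 6.53 and 5.16 in AfaR. In Cal27 ErlR PLOD1 alone was called, at -1.20 ± 0.20 (edgeR adjusted p = 0.00256), where 9.92% of all tested genes were called lower. In the FaDu models edgeR called 0, with medians of 0.28 in AfaR and -0.07 in ErlR. There, 6.48% of all tested genes were called higher in AfaR and 1.54% in ErlR, and 0.954% and 0.504% lower. COL1A1, listed with the fibroblast markers, rose by 3.15 ± 0.28 in Cal27 AfaR (edgeR adjusted p = 4.74e-05), and the part of the fibroblast genes in these values was not tested.

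SERPING1, the inhibitor of complement C1R and C1S, rose in FaDu AfaR. Its libraries there held 3.10 and 5.96 CPM against 0.437 and 1.45 in parental, without overlap, a log2 fold change of 2.25 ± 0.56 (edgeR adjusted p = 0.0271). That call was lost without parental replicate 1 (1.61) or AfaR replicate 2 (1.70). It was at 1.41 and 0.719 CPM in FaDu ErlR and between 1.34 and 3.56 CPM in Cal27, with no call. Its targets C1R and C1S also rose in FaDu AfaR, by 3.51 ± 0.58 and 1.72 ± 0.44 (edgeR adjusted p = 0.00717 and 0.0294), and in Cal27 AfaR, by 1.19 ± 0.20 and 1.56 ± 0.28 (edgeR adjusted p = 0.00144 and 0.00247). In Cal27 ErlR they fell, by 1.89 ± 0.21 and 2.07 ± 0.30 (edgeR adjusted p = 0.000390 and 0.00152), while SERPING1 differed by -0.11 ± 0.42 (edgeR adjusted p = 0.863).

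SERPINF1, a secreted factor that opposes vessel growth and inhibits no protease, was at 3.83 and 4.26 CPM in FaDu parental, 5.23 and 6.45 in AfaR and 2.17 and 3.33 in ErlR. Neither change against parental was called, and AfaR exceeded ErlR by 1.08 ± 0.30 (edgeR adjusted p = 0.0407), a call that was lost when any 1 of the 6 FaDu libraries was left out (0.81 to 1.41). In Cal27 it went from 1.57 and 1.75 CPM in parental to 0.971 and 0.522 in AfaR, a change of -1.14 ± 0.48 (edgeR adjusted p = 0.0885). The AfaR effects of the lines differed by 1.67 ± 0.50 (edgeR interaction, adjusted p = 0.0366).

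The proteases and receptors that serpins act on or bind to were followed as a list of 57 genes chosen by role. In FaDu AfaR 8 of 34 tested rose and 4 fell, where 6.48% of all tested genes were called higher and 0.954% lower. In FaDu ErlR 1 rose, TMPRSS11E (3.38 ± 0.59), where 1.54% of all tested genes were called higher. In Cal27 AfaR 6 of 32 rose and 13 fell, against 11.5% and 8.06% of all tested genes. In Cal27 ErlR 0 rose (edgeR) and 10 fell, against 3.56% and 9.92%. The 5 with the largest change in Cal27 AfaR were the surface protease TMPRSS4 (-6.22 ± 0.58), the kallikreins KLK8 (-5.23 ± 0.38), KLK7 (-3.91 ± 0.60) and KLK5 (-2.87 ± 0.25), and the complement protease MASP1 (3.31 ± 0.86). MASP1 was at 0.647 and 0.638 CPM in AfaR, 0.0582 and 0.0583 in parental and 0 in ErlR. It entered the test only through the AfaR libraries, so it had to be higher there if it differed. TMPRSS4 also fell in Cal27 ErlR (-4.00 ± 0.48). The median log2 fold changes of the list were 0.17 (AfaR) and 0.18 (ErlR) in FaDu and -0.69 (AfaR) and -0.43 (ErlR) in Cal27.

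Protease inhibitors outside the family were listed too, 26 genes of which 15 were tested in each line. Of all tested genes, 6.48% were called higher and 0.954% lower in FaDu AfaR, and 1.54% and 0.504% in FaDu ErlR. In Cal27 these shares were 11.5% and 8.06% for AfaR, and 3.56% and 9.92% for ErlR. The inhibitors called higher in FaDu AfaR and in Cal27 AfaR were near the share of all genes. FaDu AfaR had 1 called higher, WFDC2 (3.64 ± 0.72), and FaDu ErlR 1 higher, CST6 (1.40 ± 0.22), and 1 lower, CST1 (-4.30 ± 0.90). In Cal27 AfaR 2 rose, with TFPI (3.58 ± 0.27) the larger change, and 6 fell, among them elafin, PI3 (-4.86 ± 0.65), the cystatins CSTA (-3.82 ± 0.24) and CST6 (-3.29 ± 0.29), which are made in cornifying epithelium, and SLPI (-2.48 ± 0.61). In Cal27 ErlR RECK rose (1.14 ± 0.24) and 3 fell, WFDC2 (-2.52 ± 0.41), TFPI and CSTB (-1.02 ± 0.22). TFPI, the inhibitor of tissue factor, thus moved in opposite directions in the Cal27 models, at 93.4 and 72.0 CPM in AfaR, 1.98 and 1.53 in ErlR and 4.95 and 8.86 in parental. RECK lay above the parental libraries in both Cal27 models, at 9.92 and 9.16 CPM in AfaR, 7.85 and 8.73 in ErlR and 3.96 and 3.44 in parental.

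The resistant models of a line were also compared directly. FaDu AfaR against FaDu ErlR gave 4 called members (background 5.94% of genes in either direction), SERPING1 (2.08 ± 0.57) and SERPINF1 higher and SERPINB5 (-1.05 ± 0.20) and SERPINB2 lower. SERPINB2 had 3 counts in FaDu AfaR against 94 in ErlR, a ratio of ErlR to AfaR of 45.5 (95% exact interval of the counts 15.1 to 224.6). Without ErlR replicate 2, 0 were called by edgeR, 6 had an unadjusted p under 0.05, and DESeq2 on all libraries called 4. The log2 fold change of SERPINB2 was then -0.91. With spike-in scaling the split was 1 higher and 5 lower, where 437 of 15092 tested genes were called higher and 743 lower. Cal27 AfaR against Cal27 ErlR gave 5 (background 27.1%), SERPINE2 and SERPINA1 (1.46 ± 0.42) higher and SERPINB5, SERPINB7 and SERPINB2 (-3.70 ± 0.75) lower. The SERPINA1 call was lost without AfaR replicate 1 (1.42), AfaR replicate 2 (1.49) or ErlR replicate 2 (1.36).

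The parental lines differed in 11 of 18 members (background 31.6%), 9 higher and 2 lower in Cal27. With spike-in scaling 12 were higher and 0 lower, where 5340 of 16240 tested genes were called higher and 956 lower. The 9 higher ones with TMM were SERPINB3 (7.63 ± 0.85), SERPINB4 (6.91 ± 0.85), SERPINA5, SERPINA3, SERPINB2 (4.01 ± 1.04), SERPINF2 (4.00 ± 0.74), SERPINB7 (2.72 ± 0.30), SERPINA1 (1.81 ± 0.39) and SERPINB6 (1.64 ± 0.13). SERPINE2 (-1.39 ± 0.32) and SERPINF1 (-1.28 ± 0.34) were lower. Several of these folds rest on few FaDu reads: the FaDu parental libraries held 1 and 3 counts of SERPINB3, 0 and 8 of SERPINB4 and 8 and 4 of SERPINF2, so the size of those log2 values is uncertain. SERPINA5 had 2 counts in FaDu parental against 514 in Cal27 parental, a ratio of 298 (95% exact interval of the counts 82.2 to 2470). SERPINA3 had 0 against 72, a ratio of 27.9 against a floor of 3 counts over the FaDu group, and the lower 95% limit of the counts put it at least 22.1-fold higher in Cal27. The SERPINA1 call was lost without Cal27 parental replicate 2 (0.88) and that of SERPINB2 without FaDu parental replicate 2 (3.48). SERPINH1 differed by 0.00 ± 0.13. Line, tumour of origin and culture medium cannot be told apart here.

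Differences between the lines in the change from parental to resistant cells were tested as interactions. They were called in 8 of 18 members for AfaR (background 12.3%), 7 with a higher signed log2 fold change in FaDu than in Cal27, and in 4 of 18 for ErlR (background 10.9%), each with a higher signed value in FaDu. The sign of the difference does not say in which line a gene changed more in size: for AfaR, SERPINB7 was at -0.33 in FaDu and -3.65 in Cal27, and for ErlR, SERPINB1 was at -0.08 and -1.27. SERPINA3 and SERPINA5, among these, stayed under 1 CPM in FaDu, so their FaDu effect rests on a handful of counts. SERPINB3, SERPINB4 and SERPINF2, which fell in both Cal27 models, showed no called interaction, with standard errors of 1.09 to 3.90 on the log2 scale, as FaDu held almost no counts for them.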

How the data were processed

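RNA-seq of polyA RNA was analysed from 12 libraries, 2 biological replicates in each of 6 groups. Per the labels and the study's methods, the authors trimmed reads (Trimmomatic 0.36), aligned them to GRCh38 (STAR 2.5.2b) and counted reads per gene with featureCounts (Subread 1.5.2); the deposited counts used here are not normalized. The strand setting and the treatment of reads with several matches are not given in the sources used here, so overlapping genes cannot be fully separated. The deposited normalized tables were not used. Symbols were matched through GENCODE 44 by gene identifier (56948 of 58051), and chromosomes matched for all of these. Some genes of the family are not reported here.

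Counts were tested in R 4.3.3 with edgeR 4.0.16 (TMM scaling, filterByExpr, quasi-likelihood test, Benjamini-Hochberg adjustment over all genes): the 6 libraries of a line for comparisons within it, all 12 for parental lines and interactions. SE is the log2 fold change over the root of the F statistic. Levels are CPM with TMM factors over 12 libraries. DESeq2 1.42.0, other scalings, filters and fits, and each library left out were alternatives. The functions were tested on simulated data. Replicates of every group differed by more than sampling noise; nothing says that they came from separate selections, so p-values measure the spread between cultures of 1 population. Same-numbered replicates did not vary together (correlations of deviations -0.17 to 0.10), so they were not paired. Precision is set by 2 libraries per group. The members and the lists were chosen with earlier results of these data known. Members were named when called in a comparison with parental cells, at 10 CPM or more in a group, or needed for the order of levels; in other lists, at most the 5 largest called changes were to be named, and PLAU, PLAT, C1R, C1S and the neighbours were added as partners of members.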

Additional observations from a re-analysis of the deposited data

Results flagged for a closer look

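The change from parental to resistant cells differed between FaDu and Cal27 by the edgeR interaction test in 9 results where both lines reached 1 CPM. Each value is the log2 fold change in FaDu minus that in Cal27. For AfaR the differences were 2.58 for SERPINA1 (1.30 in FaDu and -1.25 in Cal27), 3.14 for SERPINB13 (-1.07 and -4.19), 3.35 for SERPINB7 (-0.33 and -3.65), 1.56 for SERPINB5 (-0.61 and -2.15), 1.67 for SERPINF1 (0.51 and -1.14) and -2.14 for SERPINE2 (1.31 and 3.47). For ErlR they were 4.15 for SERPINA1 (1.45 and -2.71), 1.17 for SERPINB1 (-0.08 and -1.27) and 1.15 for SERPINB6 (0.32 and -0.84). The FaDu and Cal27 values in brackets come from the fits of each line and the differences from the fit of all 12 libraries. Called differences with a line under 1 CPM, SERPINA3 for AfaR and SERPINA5 for both, are left out.

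SERPINF1 was the least stable of these: its call was lost with DESeq2 (1.65) and in 6 of the fits with a library left out (1.31 to 1.75, FaDu parental replicate 1 or 2, FaDu AfaR replicate 2, Cal27 parental replicate 1 or 2, Cal27 AfaR replicate 2). The SERPINB13 call was lost without Cal27 AfaR replicate 2 (2.88), and that of SERPINB1 without FaDu parental replicate 2 (1.07), FaDu ErlR replicate 2 (0.92), Cal27 parental replicate 2 (1.02) or Cal27 ErlR replicate 2 (0.95).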

How the results depend on the processing

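All 25 calls of members in the 4 comparisons with parental cells were also made with DESeq2, only the groups compared, no filter, and upper-quartile, size-factor or spike-in scaling, and none reversed under any alternative. The replicate block kept all 25 as well; it moved the count for FaDu AfaR against ErlR from 4 to 2 and that of AfaR interactions from 8 to 7, and added SERPINB13 in FaDu AfaR (5 called). Replicates share only a number here. Testing against a fold change of 2 (glmTreat) kept 16 of 25: 0 in FaDu AfaR (4 at unadjusted p under 0.05), 0 in FaDu ErlR (3) and 0 in FaDu AfaR against ErlR (2), where DESeq2 called 4, 2 and 4; the AfaR and ErlR interactions fell to 2 and 2. Requiring 10 counts in every library gave 2 for FaDu AfaR against ErlR, 5 for Cal27 AfaR, 3 for Cal27 ErlR, 4 between parental lines and 4 AfaR interactions, with fewer members tested. Without a filter, FaDu ErlR had 4 calls and the ErlR interaction 7. Fitting only the groups compared gave 2 for FaDu AfaR against ErlR, and fitting all 12 libraries gave 1 for FaDu ErlR; the cause was not tested. By adjusted p alone, with no fold limit, Cal27 AfaR against ErlR had 8.

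Spike-in scaling gave 6 calls in FaDu ErlR (SERPINE2, SERPINI1, SERPINB7 and SERPINB8 added) and 9 ErlR interactions. Over all tested genes it called 1514 higher and 62 lower in FaDu ErlR, and 2632 higher and 173 lower as ErlR interactions. It also moved the median log2 fold change of all genes by 0.49 in FaDu ErlR, 0.18 in FaDu AfaR and 0.62 between the parental lines. Upper-quartile scaling moved that of Cal27 AfaR against ErlR to 0.12. Leaving out 1 library at a time gave 1 to 5 calls in FaDu AfaR, 0 to 2 in FaDu ErlR, 0 to 3 in FaDu AfaR against ErlR, 10 to 11 in Cal27 AfaR, 8 to 9 in Cal27 ErlR and 5 to 9 AfaR interactions. FaDu AfaR had 1 without parental replicate 1. FaDu ErlR had 0 without either parental replicate (edgeR, 5 at an unadjusted p under 0.05) or without ErlR replicate 2 (4), and 1 without ErlR replicate 1, where DESeq2 on all libraries called 2. FaDu AfaR against ErlR had 2 without either parental replicate or AfaR replicate 2. The AfaR interactions were 5 without FaDu AfaR replicate 2 or Cal27 AfaR replicate 2. Levels without TMM moved by more than the SD in 6 of 39 cases.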
